A study of Rattus norvegicus with 3 samples.

Results

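Mesenchymal cell labels were placed on a spatial transcriptome of the thymus of an 8-week-old Lewis rat, an inbred strain, by their distance to the capsule and septa. The members are the bins of the section, squares of 10 µm, that carry an entry in the authors' merged mesenchymal column. They numbered 3046 of 599178 bins, and of 592087 bins with any cell label. TMC4 held 1704 of them (55.9%), TMC1 held 382, capFb held 381, TMC2 held 315, vSMC_PC held 183 and TMC3 held 81. TMC1 to TMC4 are the authors' numbered mesenchymal groups, capFb is a further fibroblast group and vSMC_PC a mural label, and the files do not spell the names out. The section, 10 µm thick, came from the middle portion of 1 thymus with its lobes placed back to back, and was read on a Stereo-seq chip, a surface of barcoded capture spots. Labels were assigned by RCTD, a method that splits the RNA of a bin between reference cell types, and a droplet library of stromal cells was used here to check what each name stands for. That library came from digested thymi of the same strain and age, whose number is not given, and held CD45-negative cells taken by magnetic enrichment and a flow sort. No treatment or genetic change is named for any sample. The regions capsular, cortex, mECA and mEFA were used as deposited.

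The thymus is wrapped in a fibrous capsule that sends septa inward between its lobules, and fibroblasts, blood vessels and nerves run in both. Capsular and septal fibroblasts lay down collagen and supply growth factors to the nearby epithelium. Fibroblasts of the medulla are known for contacts with vessels and for factors that attract or retain maturing T cells. Mural cells, which are smooth muscle cells and pericytes, wrap the vessels.

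There was 1 section and 1 library, so no test was run, and bins and cells are not replicates of a condition. Intervals are 95% intervals for counting error only, and they are too narrow for the section because adjacent bins share RNA and tissue. Distances use the nominal spot pitch of 0.5 µm. The deposited distance of every bin equalled its distance to the nearest of 15817 bins marked as capsule, and the marked lines follow the septa as well as the outer surface. Distance 0 therefore means a bin on the capsule or on a septum. Every marked bin also belonged to cluster 13 of the authors' clusters of the bins, which were made from expression. The labels come from the same RNA, so distance to the lines is not shown to be independent of the labels. The capsular region holds the bins within 50 µm of these lines. Some pieces of tissue lie outside the marked outline, as the map shows, and were kept.

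The merged column did not treat all names alike. It held every bin with a confident first or second label of TMC1, TMC2, TMC4 or capFb, but of TMC3 and vSMC_PC it held the confident first labels only. It thus left out 323 bins with a confident second label of TMC3 and 564 of vSMC_PC. With the same rule as for the other names TMC3 has 404 bins and vSMC_PC has 747, and values under this wider rule are given beside the merged ones or named as such. Of the 3046 members, 3039 carried a thymocyte label in the other of the first 2 places, and none carried 2 mesenchymal labels. In the whole section 98.8% of the bins with 2 labels paired 1 thymocyte with 1 stromal label, and 9 bins paired 2 stromal labels. The median weight of the mesenchymal label, its estimated share of the bin's RNA, lay between 0.402 and 0.447 where it came first and between 0.170 and 0.200 where it came second. A mesenchymal label therefore takes the place that an epithelial or endothelial label could have taken, and a bin without the label is not shown to lack the cells.

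In the stromal library capFb carried the highest level of all 5 genes of adventitial and capsular fibroblasts. Its levels, in counts per 1000000 UMIs (CPM), were 819.9 for Dpp4, a surface peptidase (806 to 834, exact Poisson interval), and 4894 for Pi16, a peptidase inhibitor of adventitial fibroblasts (4860.4 to 4929). TMC1 came next for each of the 5, with Dpp4 at 154 and Pi16 at 371, and TMC4 was lowest, with 3.63 and 18.5. All 5 genes were at least 2-fold above the mean of the other 4 mesenchymal types in capFb, where 5.57% of the 13530 genes with at least 100 UMIs were. Col1a1, a chain of the main fibrillar collagen, fell along the row, from 13156 in capFb and 7465 in TMC1 to 2745 in TMC2, 1797 in TMC3 and 757 in TMC4. By the rule for leading genes capFb was marked by Akr1c3, an aldo-keto reductase, at 126 CPM against at most 2.84 in the other 4, with Hs3st5, a heparan sulfate sulfotransferase, and Adamts16, a secreted metalloprotease, 32.7 and 31.4 times above the next type.

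TMC1 and TMC2 were the closest of the 10 pairs of types, with 983 of the 13530 genes 2-fold apart, and led for different growth factors. TMC1 led for Igf1, insulin-like growth factor 1, at 2565 CPM, the only gene of 11 in the epithelial growth list to pass 2-fold in TMC1 (2.67% of genes tested passed). TMC2 passed 2-fold for 5 of the 11 (3.16% of genes tested passed), which were Fgf10, a growth factor for epithelium, Bmp4, a morphogen, the Wnt agonists Rspo1 and Rspo3, and Aldh1a1, an enzyme of retinoic acid synthesis. Fgf10 stood at 180.5 CPM in TMC2, 127 in TMC1, 64.2 in TMC3, 48.8 in capFb and 4.50 in TMC4. Bmp4 stood at 292 CPM in TMC2 and 159 in TMC1. The leading genes of TMC1 were Cyp1b1, a cytochrome P450, S100b, a calcium-binding protein, and Slc1a3, a glutamate transporter, at 6.80, 2.94 and 2.65 times the next type. Those of TMC2 were Masp1, a protease of the lectin complement pathway, Ddit4l, an inhibitor of mTOR signalling, and Pappa, a protease of insulin-like growth factor binding proteins, at 5.31, 4.39 and 3.96 times.

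TMC4 carried most of the lymphoid factors together with contractile genes. Of 12 lymphoid stroma genes 7 passed 2-fold in TMC4 (9.51% of genes tested passed), among them Il7, the survival cytokine of lymphocytes, at 193 CPM against 90.3 in TMC3 and 21.7 or less in TMC1, TMC2 and capFb. Tnfsf11, the ligand RANKL that drives medullary epithelium, stood at 16.1 CPM on 186 UMIs (13.9 to 18.6). It was 2.46 in TMC3 and under 1 in TMC1, TMC2 and capFb. Among the mesenchymal types, 8 of the 12 genes were highest in TMC4, 3 in TMC2 and 1 in TMC1. Cxcl13, also of this list, passed 2-fold in TMC2. The lymphoid genes were not limited to fibroblasts, since Ccl21, a chemokine that draws lymphocytes by their receptor CCR7, was 22085 CPM in TMC4 and 11881 in vSMC/PC, the library's spelling of the mural name. Of 8 mural genes 7 passed 2-fold in TMC4, but vSMC/PC was higher for all 8. Rgs5, a regulator of G protein signalling typical of pericytes, was 97.9 CPM in TMC4 and 895 in vSMC/PC, and Myh11, smooth muscle myosin, 38.9 and 998. Pdgfra, a receptor of fibroblasts, was 290.4 CPM in TMC4 and 78.6 in vSMC/PC. The 7 listed fibroblast genes together were closer, at 9456 CPM in TMC4 and 8649 in vSMC/PC, where TMC3 had 21989 and capFb 55322. The leading genes of TMC4 were Alk, a receptor tyrosine kinase, Nphs1, the adhesion protein nephrin, and Ncam2, a neural adhesion protein, at 9.39, 8.73 and 6.69 times the next type.

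TMC3 lay between TMC2 and TMC4. Its level fell strictly between theirs for 11 of the 12 lymphoid genes, 7 of the 8 mural genes and all 7 fibroblast genes, where 64.1% of all 13530 genes tested did. It did so for 9 of the 11 growth genes, but only 3 of the 5 adventitial and 1 of the 3 endothelial genes. Over all listed genes tested it was 41 of 53. Ccl21 was 106 CPM in TMC2 and 4159.8 in TMC3. Of the 8 mural genes 4 passed 2-fold in TMC3 (2.00% of genes tested passed), which were Cspg4, Mcam, Notch3 and Des, and 3 of these, Mcam, Notch3 and Des, passed in TMC4 too. Its leading genes were Il6, an inflammatory cytokine, Nabp1, a DNA-binding protein, and Btg2, an early response gene, at no more than 2.38 times the next type, the smallest leads of the 5 types. Between adjacent types in the order capFb, TMC1, TMC2, TMC3 and TMC4, 2110, 983, 1661 and 1589 genes were 2-fold apart, and between its ends 3980.

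**Figure D1:**
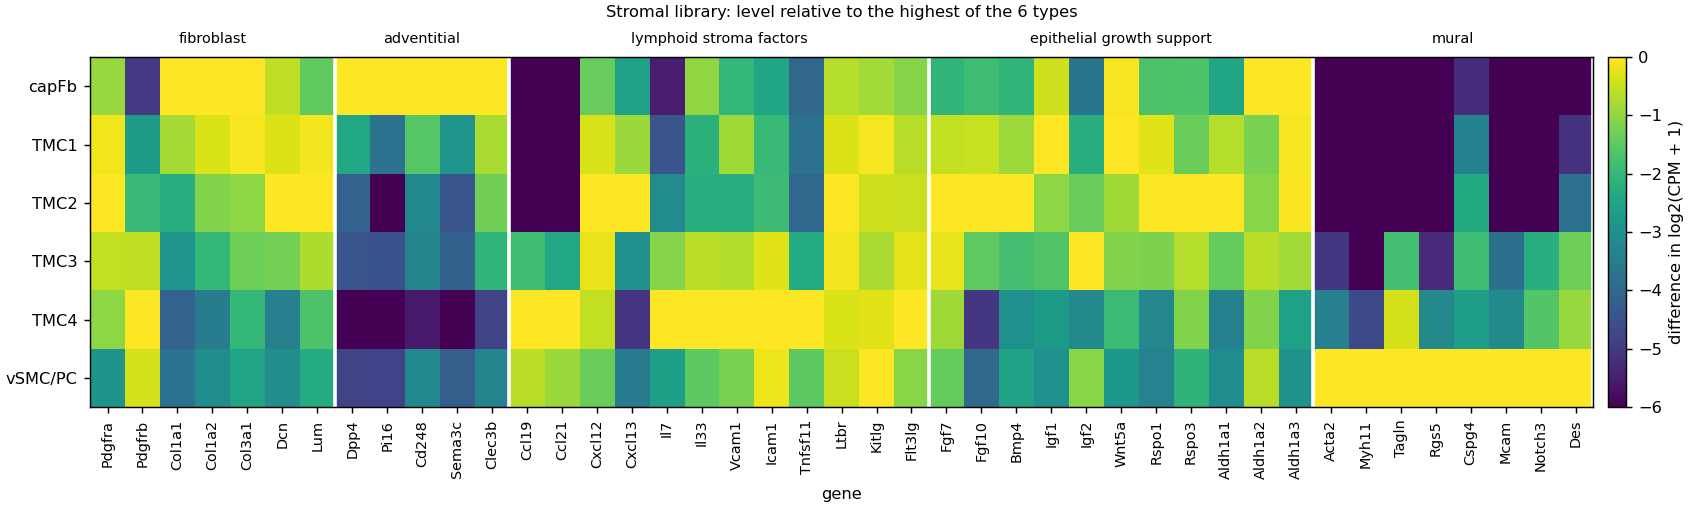
Level of each listed gene (columns, grouped by list) in 6 cell types of the stromal library (rows), as the difference in log2(CPM + 1) from the highest of the 6, so that 0 marks the highest type. The adventitial genes peak in capFb, 5 of the 11 growth genes pass 2-fold in TMC2, 7 of the 12 lymphoid genes pass 2-fold in TMC4 and the 8 mural genes peak in vSMC/PC.

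Most markers of other cell types were low in the 5 mesenchymal types, with Tek, the endothelial receptor of angiopoietins, at 189 CPM in capFb and Pparg, a regulator of fat cells, at 36.4 in TMC1 as exceptions. Epcam, an epithelial adhesion protein, lay between 3.72 and 5.63 CPM and Ptprc, which encodes CD45, between 0.784 and 1.61. Sox10, a glial factor, had no UMI in any of the 5. The types are clusters that the authors made from these same counts, so the levels describe the clusters and do not test them. The files used here for the section give labels per bin and no gene counts, so these markers could not be read on the section itself.

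On the section the 5 names fell into 3 arrangements, which the map of the labels shows. The bins of capFb, TMC1 and TMC2 traced the capsule and septa, those of TMC4 lay mainly in the medullary islands, and those of TMC3 were spread over both and the cortex between them.

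**Figure D2:**
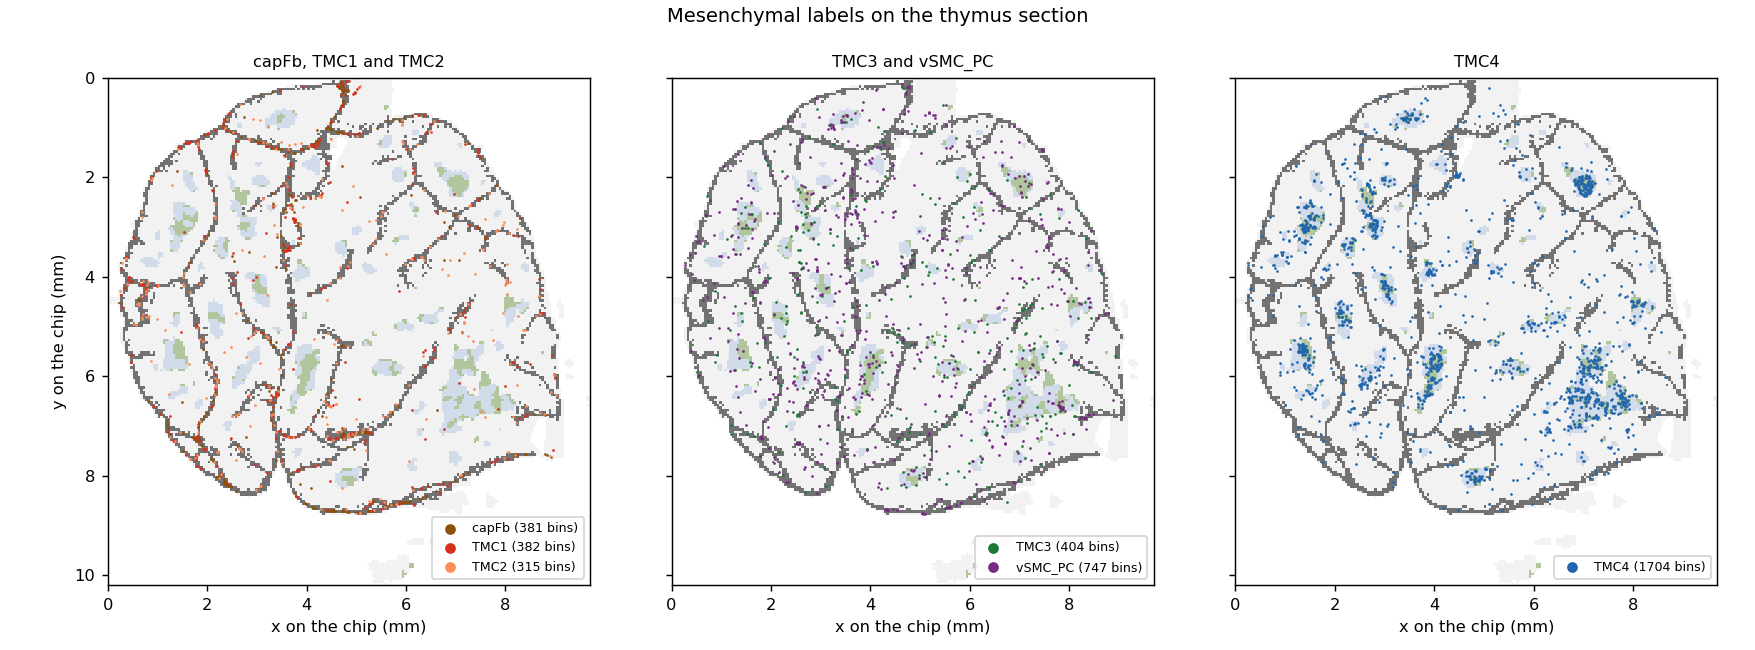
Positions on the chip (mm) of bins with a confident first or second label of capFb (381), TMC1 (382) and TMC2 (315) on the left, TMC3 (404) and vSMC_PC (747) in the middle and TMC4 (1704) on the right. Dark grey marks blocks of 50 µm that hold a marked capsule or septum bin, green mEFA, blue mECA and light grey other tissue; the left panel's labels lie along the dark lines and the right panel's in the coloured islands.

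The capsular fibroblast label lay closest to the marked lines. Of 381 capFb bins 284 (74.5%, 69.9 to 78.8) were on the marked bins themselves, 85.8% were within 10 µm and 90% were within 41.2 µm. TMC1 had 66.0% (61.0 to 70.7) on the line and 90% within 97.6 µm, and TMC2 56.8% (51.2 to 62.4) and 90% within 295 µm. All 3 had a median distance of 0, where all bins of the section had 175 µm and 2.64% on the line. Only bins of cluster 13 lay on the line, so these shares are not independent of the expression that gave the labels. The intervals of capFb and TMC2 for the share on the line do not overlap, and that of TMC1 touches both. TMC2 thus had the longest tail of the 3 into the tissue by these labels. With first labels alone, of any confidence, the order of TMC1 and TMC2 turned, with 86.7% of 45 TMC2 bins on the line (73.2 to 94.9) and 54 of 75 TMC1 bins (95% interval 60.4 to 81.8%), beside 86.3% of 51 capFb bins (73.7 to 94.3), and all 3 intervals overlap.

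TMC3 was split between the line and the depth. Of its 81 merged bins 43.2% (32.2 to 54.7) lay on the line and the median distance was 80.6 µm (0 to 190.3). By the wider rule, with 404 bins, 26.5% (22.2 to 31.1) lay on it and the median was 205 µm (161 to 251). With first labels alone, of any confidence, 51.9% of 266 bins lay on it (45.7 to 58.0) and the median was 0 µm (0 to 10). Per 10000 bins the wider rule gave 11.5 TMC3 bins within 50 µm (9.74 to 13.6), 1.53 at 50 to 100 µm (0.791 to 2.67), 3.54 at 100 to 200 µm, 6.83 at 200 to 400 µm and 8.59 beyond 400 µm (6.89 to 10.6). The density was thus lowest just inside the capsular region and high at both ends.

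TMC4 lay deepest, with a median of 381 µm (370.1 to 390) and quartiles of 253 and 498 µm. Its density was 11.2 per 10000 bins within 50 µm (9.45 to 13.2), 5.74 at 50 to 100 µm (4.19 to 7.68), 10.3 at 100 to 200 µm, 37.1 at 200 to 400 µm and 74.7 beyond (69.5 to 80.1). Over the same bands capFb went from 27.3 to 1.53, 0.965, 0.594 and 0.390 per 10000, TMC1 from 26.0 to 0.683 and TMC2 from 18.7 to 1.56. Beyond 100 µm the counting intervals of the 3 bands overlapped for each of these 3 labels, so no further fall was detectable at these counts. With TMC4 too the band at 50 to 100 µm was the sparsest, and 141 TMC4 bins lay in the capsular region, 51 of them on the line.

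**Figure D3:**
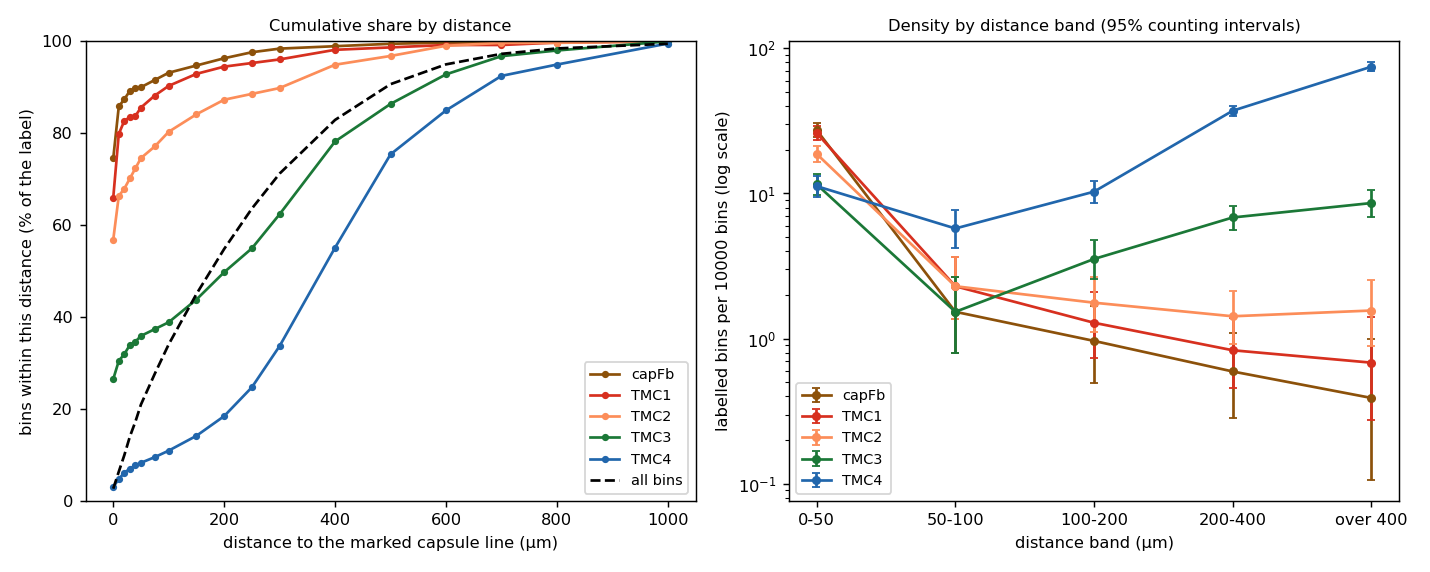
Left, share of each label's bins (%) within a distance (µm) of the marked capsule and septa, with all bins dashed. Right, labelled bins per 10000 bins (log scale) in 5 distance bands with 95% counting intervals, TMC3 by the wider rule; capFb, TMC1 and TMC2 drop from 27.3, 26.0 and 18.7 within 50 µm while TMC4 rises to 74.7 beyond 400 µm.

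By region, 343 of the 381 capFb bins (95% interval 86.6 to 92.8%), 85.6% of TMC1 (81.7 to 89.0) and 74.6% of TMC2 (69.4 to 79.3) lay in the capsular region, which holds 21.0% of all bins. The medulla, with 9.97% of all bins, held 66.5% of TMC4, 21.8% of TMC3 by the wider rule (17.9 to 26.1) and 17.3% by the merged one (9.78 to 27.3), 2.36% of TMC1, which is 9 bins, and 0.952% of TMC2, which is 3. None of the 381 capFb bins was medullary, which allows a share of up to 0.787% at 3 counts. Of the 1177 bins with a first or second capFb label of any confidence, 2.38% were, 28 bins in all. Every bin within 50 µm of the lines is capsular by rule, so only 38 of the 381 capFb bins, all cortical, could have been medullary. The low medullary shares of TMC1 and TMC2 carry the same limit. The cortex held 42.3% of TMC3 by the wider rule, below the 69.1% of all bins that are cortical. It also held 25.2% of TMC4, 24.4% of TMC2, 46 of the 382 TMC1 bins and 9.97% of capFb.

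The labels on the line differed in how they divided between the outer surface and the septa. Among marked bins, capFb was found on 255 per 10000 within 100 µm of the outer tissue edge (207 to 309.5) and on 155 farther in (134 to 179). TMC1 gave 195 (154 to 244) and 148 (127 to 171), whose intervals overlap. TMC2 went the other way, with 85.8 (59.1 to 120.2) near the edge and 122 (103 to 143) farther in, and TMC3 by the wider rule gave 33.8 (18.0 to 57.7) and 78.5 (63.5 to 96.0). The intervals do not overlap for capFb and TMC3 and do for TMC1 and TMC2. The median distance from the outer edge of labelled bins on the line was 401 µm for capFb, 475 for TMC1, 828 for TMC2 and 1274 for TMC3, with 793 for all marked bins. Where the lobes face each other their surfaces do not count as edge here.

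Bins of each label lay near other bins of the same label. Within 30 µm of a bin, the share of own-kind bins over their share in the section was 55.0 for capFb, 29.0 for TMC1, 14.3 for TMC4, 13.8 for TMC2 and 7.62 for TMC3 by the wider rule. For the 81 merged TMC3 bins it was 26.1 on 8 neighbours counted from both sides (11.3 to 51.4). A companion of its own kind lay within 30 µm of 53.3% of TMC4 bins, 47.5% of capFb, 35.6% of TMC1, 18.4% of TMC2 and 12.6% of TMC3. Labels that share a thin line must lie near each other, so each ratio was also taken against the share of the label at the neighbours' own region and distance from the line. The own-kind ratio was then 4.83 for capFb (4.35 to 5.35), 3.54 for TMC3 (2.69 to 4.57), 3.26 for TMC1 (2.82 to 3.75), 2.45 for TMC4 (2.34 to 2.56) and 2.26 for TMC2 (1.74 to 2.89). Every own-kind ratio stayed above 1 and its interval above 1. Own-kind pairs enter from both sides, so these intervals are too narrow. Adjacent bins can also share the RNA of 1 cell, so the ratios do not show that separate cells gather.

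Between kinds, the matching removed most of the nearness on the line. Marked bins formed a stratum of their own and were all in cluster 13, so matching there was also matching on an expression cluster. TMC1 around capFb went from 13.3 against the section to 1.27 at matched distance (1.02 to 1.57), TMC2 around TMC1 from 9.32 to 1.25 (0.932 to 1.64) and TMC2 around capFb from 7.90 to 0.896 (0.651 to 1.20). TMC4 around TMC1, TMC2 and capFb was 1.00, 0.946 and 1.25 at matched distance, with intervals that include 1. TMC3 kept its company. By the wider rule TMC3 bins had vSMC_PC neighbours at 3.49 times the matched background (2.84 to 4.25, 99 neighbours), TMC2 neighbours at 2.39 (1.73 to 3.24) and TMC4 neighbours at 1.76 (1.45 to 2.11), but TMC1 at 0.930 (0.589 to 1.39) and capFb at 0.844 (0.529 to 1.28). TMC2 and TMC4 are also the types between which TMC3 lay in gene levels. RCTD splits the RNA of a bin between reference types, so this likeness is not independent of the neighbour values.

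**Figure D4:**
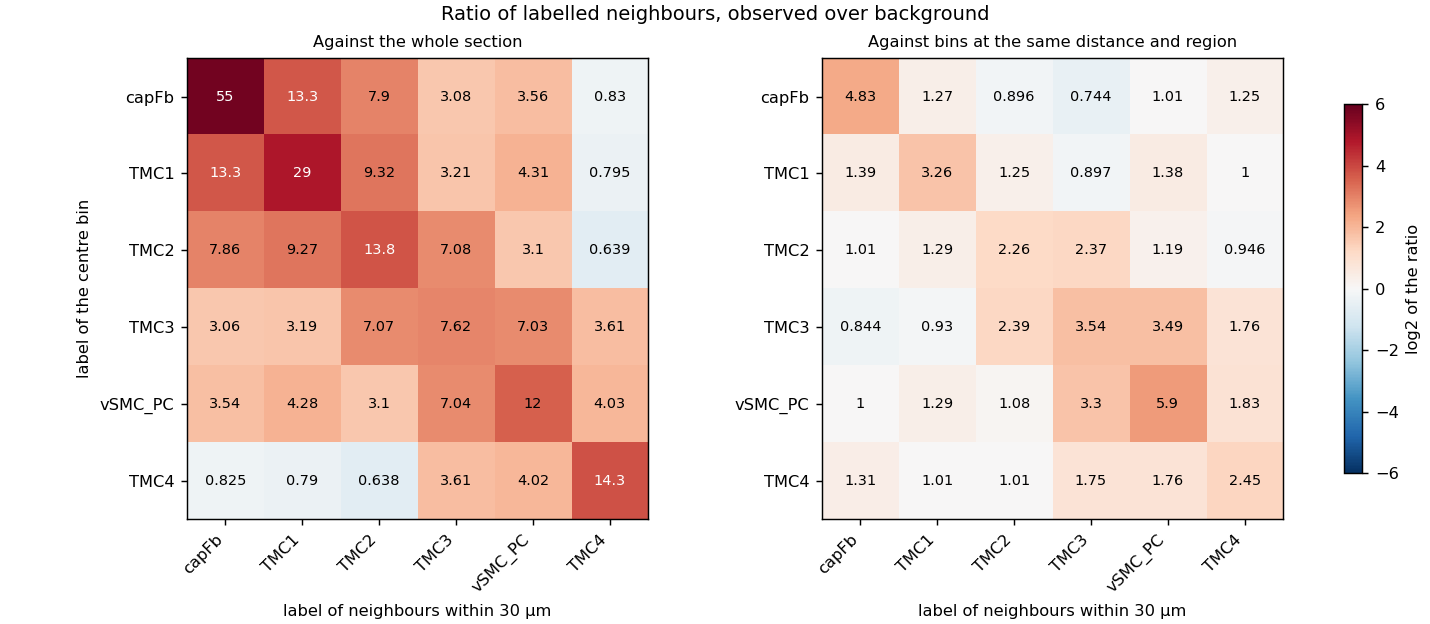
Ratio of labelled neighbours within 30 µm (columns) of bins with a confident first or second label (rows) to their share in the section (left) or at the same region and distance from the capsule and septa (right), coloured by log2 of the ratio. The diagonal stays above 1 in both, while TMC1 beside capFb drops from 13.3 to 1.27 and TMC3 beside vSMC_PC from 7.03 to 3.49.

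The vessel labels differed by name, and vEC was the one raised around TMC3 and TMC4 beyond the labels of the line. Bins with a confident vEC label, an endothelial name of the authors, stood around TMC3 of the wider rule at 3.03 times the matched background (2.51 to 3.63) and around TMC4 at 2.06 (1.87 to 2.26). They stood at 1.10 around TMC2 (0.769 to 1.52), 0.843 around TMC1 (0.596 to 1.16) and 0.575 around capFb (0.385 to 0.826), the only interval wholly under 1. The matched ratio of aEC, another endothelial name, was 2.00 around TMC3 (1.52 to 2.59), 1.49 around TMC1 (1.17 to 1.87), 1.38 around TMC4 (1.15 to 1.64), 1.04 around TMC2 (0.729 to 1.44) and 0.859 around capFb (0.636 to 1.14). That of capEC, the other endothelial name, was 1.42 around TMC1 (1.08 to 1.83), 1.38 around TMC4 (1.10 to 1.70), 1.28 around TMC3 (0.887 to 1.79), 0.825 around capFb (0.584 to 1.13) and 0.689 around TMC2 (0.427 to 1.05). For aEC and capEC the intervals of TMC1 and TMC4 overlapped. Against the section both names were more frequent around TMC1 than around TMC4, at 5.24 and 2.02 for aEC and 3.06 and 0.983 for capEC. A vEC bin lay within 30 µm of 18.6% of TMC3 bins and 7.09% of capFb bins. The mural label vSMC_PC stood at 1.76 around TMC4 (1.55 to 2.00), 1.38 around TMC1 (1.05 to 1.79) and 1.01 around capFb (0.740 to 1.34).

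Among epithelial first labels the early progenitor name had the highest ratio to the section around the labels of the line. It was 12.7 times as frequent around TMC1, 11.7 around capFb and 9.29 around TMC2. At matched distance it was 1.63 around TMC1 (1.43 to 1.84), 1.46 around TMC2 (1.24 to 1.71), 1.26 around capFb (1.10 to 1.43) and 1.64 around TMC3 (1.34 to 1.98). Matched ratios of cortical epithelium (cTEC) were 1.76 around TMC1 (1.52 to 2.03), above that of the early progenitor name within overlapping intervals, 1.22 around capFb (1.03 to 1.43), 1.08 around TMC2 (0.864 to 1.32) and 0.700 around TMC4 (0.562 to 0.862). Those of medullary epithelium (mTEC) were 1.37 around capFb (at least 1.25 at the lower bound), 1.34 around TMC1 (1.22 to 1.46), 1.18 around TMC2 (1.05 to 1.32) and 0.870 around TMC4 (0.843 to 0.897). At matched distance no epithelial name therefore stood first around all 3 labels of the line. The part of RNA content in these ratios was not tested. Bins with the labels were deeper than the section's median of 323 UMIs, at 487 for TMC4, 427 for merged TMC3, 411 for TMC2 and 381 for TMC1, except capFb at 313. Within regions, TMC4 bins had 510 UMIs against 516 for all bins in mECA and 513.5 against 489 in mEFA. In the cortex TMC4 bins had 439 against 305, and in the capsular region 367 against 311.

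The thymocyte label that shared a bin differed between the subsets, in part beyond the regions they lie in. Where the mesenchymal label was second, the first label was double-negative (DN), the earliest thymocyte stage, in 57.2% of TMC1 bins (51.8 to 62.4), 52.1% of TMC2 (46.2 to 57.9), 43.2% of capFb (37.9 to 48.8), 39.0% of TMC3 (33.7 to 44.6) and 16.9% of TMC4 (15.0 to 18.8). All bins of the same regions gave 48.9, 49.2, 50.1, 38.7 and 20.5%, so TMC1 lay above its background, capFb and TMC4 below theirs and TMC2 and TMC3 within their intervals of it. In the few bins where the mesenchymal label came first, DN was the second label in 35.3% of 34 TMC1 bins (19.7 to 53.5) and 33.3% of 48 capFb bins. The excess of DN beside TMC1 was therefore not seen there. Nor was it seen in the surroundings, since DN was the first label of 44.7% of bins within 30 µm of TMC1, against 48.2% by region. That ratio was 0.928 (0.908 to 0.948), with 1.04 around TMC2, 0.956 around TMC3 by the wider rule, 0.845 around capFb and 0.720 around TMC4. TMC3 as second label shared its bin with an agonist-selected or regulatory T cell label in 21.7% (17.3 to 26.6), above a background of 11.3%. In TMC4 the mature single-positive labels made up 28.5% (26.2 to 30.8) against 18.8%. This background counts bins of every first label, 9.05% of them mTEC in the case of TMC4, while 1 of the 3046 members had an epithelial label in the first 2 places.

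Inside the medulla TMC4 was denser away from its rim. In mEFA the label was on 1.11% of bins within 20 µm of a bin outside the medulla (0.855 to 1.42), 2.27% at 20 to 50 µm, 4.30% at 50 to 100 µm and 6.15% beyond (5.46 to 6.90). In mECA the same bands gave 0.779% (0.610 to 0.980), 1.05%, 1.43% and 1.91% (1.56 to 2.31). The intervals of mEFA and mECA overlapped at the rim and were apart beyond 20 µm. With first labels alone, of any confidence, TMC4 was on 34.3 per 10000 mEFA bins (26.6 to 43.5) and 24.9 per 10000 mECA bins (20.2 to 30.2), with overlapping intervals, where the merged labels gave 329 and 122. With distance from mECA the share in mEFA went from 2.62% within 20 µm to 4.10% at 50 to 100 µm and 2.09% beyond, the last on 30 bins (1.41 to 2.96). In mECA the label also thinned with distance from mEFA, from 2.06% within 20 µm (1.74 to 2.42) to 0.812% beyond 100 µm (0.623 to 1.04). TMC4 took a like share of the confident non-epithelial stromal labels in both, 63.6% in mEFA (60.5 to 66.5) and 60.9% in mECA (57.5 to 64.3), while those labels together were on 5.17% and 2.00% of bins. Fewer cells and cells whose label lost its place to epithelium cannot be told apart here.

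Of 50 medullary islands of at least 100 bins 38 held TMC4, at a median of 1.14% of bins and at most 4.09%. The largest island held 24.4% of all medullary TMC4 bins. In 15 of the 20 islands with at least 100 bins of each area the share was higher in mEFA, with medians of 3.34% in mEFA and 1.32% in mECA. The ranges overlap, from 0 to 6.22% and from 0 to 2.77%.

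Cortical TMC4 lay near the medulla. The 430 cortical TMC4 bins lay at a median of 72.8 µm from the nearest medullary bin (58.3 to 84.9), where cortical bins lay at 220 µm. The density was 41.9 per 10000 within 50 µm (36.1 to 48.4), 15.1 at 50 to 100 µm, 7.04 at 100 to 200 µm, 5.42 at 200 to 400 µm and 3.72 beyond (2.58 to 5.20). TMC3 by the wider rule had the same shape at a lower level, from 12.8 within 50 µm (9.69 to 16.6) to 2.52 beyond 400 µm (1.60 to 3.78). The cortical bins of TMC1 and capFb did the opposite, with 2 and 0 bins within 50 µm of the medulla and medians of 388 and 380.2 µm.

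**Figure D5:**
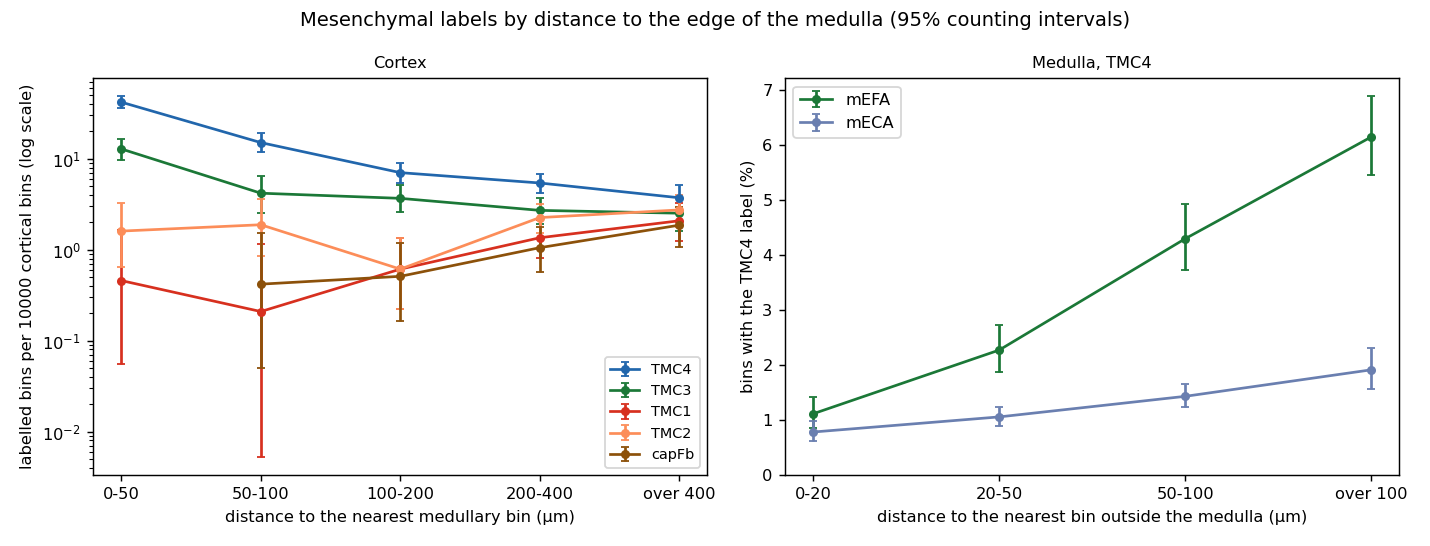
Left, cortical bins with each label per 10000 cortical bins (log scale) by distance (µm) to the nearest medullary bin, with bands that hold no labelled bin left out and TMC3 by the wider rule. Right, share of medullary bins with TMC4 (%) by distance to the nearest bin outside the medulla in mEFA and mECA; bars are 95% counting intervals, TMC4 falls from 41.9 to 3.72 per 10000 away from the medulla and rises from 1.11 to 6.15% inside mEFA.

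How often a label was called moved with the depth of the bin. With the bins of a region divided by UMI count into 4 groups of about equal size, from the shallowest to the deepest capsular group TMC1 rose from 11.2 to 43.0 per 10000 and TMC2 from 4.79 to 34.8, while capFb was 17.6, 37.0, 35.4 and 19.3. TMC4 rose from 183 to 417 in mEFA and from 1.36 to 26.6 in the cortex, but was 129 and 106 in mECA. In the shallowest groups mEFA and mECA gave 183 (147 to 225) and 129 (108 to 153).

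The authors' own clusters of the bins, made from expression, divided the names along the same line. Cluster 13, with 4.22% of all bins and 62.6% of its bins on the marked line, held 77.2% of TMC1, 77.1% of TMC2, 77.8% of merged TMC3 and 80.6% of capFb, and 8.39% of TMC4. Cluster 5, with 6.27% of all bins and none of its bins on the marked line, held 71.0% of TMC4. TMC3 by the wider rule was in both, with 55.2% in cluster 13 and 26.0% in cluster 5. The TMC4 bins of cluster 13 lay at a median of 205 µm from the line and 35.7% of these 143 were on it. Every marked bin was in cluster 13, so a labelled bin on the line had to fall in that cluster. Clusters and labels come from the same RNA, so this is a description and not a check of the clusters, the labels or the line.

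The order held in segmented cells and in each of 4 parts of the section. Among segmented cell bins with a confident first or second label the median distance was 0 for capFb (274 bins), TMC1 (264) and TMC2 (239), 191 µm for TMC3 (347) and 372 µm for TMC4 (1668). The segmented area was largest for capFb, at a median of 101 µm², against 81.5 for TMC1, 55 for TMC4 and 45.5 for all cell bins. In the 4 parts of the section, divided at the median x and y, the medians of capFb, TMC1 and TMC2 were 0 in each. Those of TMC3 by the wider rule, in the parts of low x and high y, high x and low y, low x and low y, and high x and high y, were 119.7, 138, 187 and 315 µm. Those of TMC4 were 340.1, 349, 332 and 552 µm in the same order, above TMC3 in each. For merged TMC3 the medians were 5, 5, 95.4 and 282 µm, on 18, 6, 26 and 31 bins. Medians of 0 do not rank capFb, TMC1 and TMC2. Their share on the line fell in that order in each part, and in segmented cell bins, at 86.9, 75.8 and 61.9%.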

How the data were processed

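Members, gene lists and comparisons were chosen with earlier results of these data known. The deposited counts of the stromal library are UMI counts per gene and barcode, made by the authors with Cell Ranger 8.0.0 on build mRatBN7.2, and Seurat 5.3.0 is named, per the submitters' processing notes. The UMI counts per bin, the RCTD weights, which are fractions, the regions, the distances in chip units, the clusters and the merged labels were deposited by the authors; the rules that made regions, confidence and merged labels are not given in the sources used here. A bin is 20 units, or 10 µm, wide. A label is confident where its deposited flag says so.

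Distances, bands and shares were computed here from these columns. Shares have exact Clopper-Pearson intervals, medians exact order-statistic intervals and counts exact Poisson intervals. Neighbours are other bins within 60 units (30 µm) of the centre bin. The matched background is the share of a label in 16 strata of region and distance, read at the neighbours' positions. UMIs were summed over the cells of each of the authors' types and scaled to CPM (counts per 1000000). Named genes are the 61 genes of 11 lists and, per mesenchymal type, the 3 with the largest ratio to the highest of the other 4, among named genes that had 100 or more UMIs and were detected in 25% or more of that type's cells. The authors also deposited the percent of mitochondrial UMIs per cell and module scores per bin, which enter no result. No doublets were removed here. Summed depth per type ran from 3372574 UMIs in 452 vSMC/PC cells to 26685773 in 3080 TMC2 cells.

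Alternatives were other label rules, parts of the section, deeper bins, segmented cell bins, other radii and backgrounds, and other filters on cells and genes. The neighbour ratio and the fold rule were tested on simulated data. Python 3.11.15, NumPy 2.4.6, pandas 2.3.3, SciPy 1.17.1 and matplotlib 3.10.9 were used. The thymocyte library was not used here.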

Additional observations from a re-analysis of the deposited data

Results flagged for a closer look

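Confident mesenchymal labels also appear in the third place, outside the merged column, in bins that carry no other mesenchymal label. There were 289 such TMC4 bins, 81 of TMC1, 69 of capFb, 61 of vSMC_PC, 56 of TMC2 and 32 of TMC3, counts above what a count of 0 allows. Their positions were not used for the values above. Of these TMC4 bins 76.8% were medullary, at a median distance of 380 µm. The TMC1, TMC2 and capFb bins of this kind were 85.2%, 83.9% and 87.0% capsular, and none of the 69 capFb bins was medullary. Those of TMC3 were 31.2% medullary and those of vSMC_PC 32.8%.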

How the results depend on the processing

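Values were computed under other choices, of which labels of any confidence, the wider rule for TMC3 and the background at the neighbours' own distance and region were chosen after seeing the data. The median distance of capFb, TMC1 and TMC2 stayed at 0 and every own-kind ratio stayed above 1 in each alternative that was run, while the order of TMC1 and TMC2 by their share on the line turned with first labels alone. With first labels alone the own-kind ratio was 146 for TMC1, 21.3 for TMC2, 24.2 for TMC4 and 329.8 for capFb. At a radius of 30 units it was 53.4 for TMC1, 34.7 for TMC2, 68.5 for TMC3, 21.7 for TMC4 and 88.8 for capFb, and at 120 units 13.8 for TMC1, 7.75 for TMC2, 10.4 for TMC4 and 29.4 for capFb. Against the region it was 8.22 for TMC1, 5.04 for TMC2, 2.50 for TMC4 and 14.2 for capFb, and at matched distance and region 3.26 for TMC1, 2.26 for TMC2, 6.18 for TMC3, 2.45 for TMC4 and 4.83 for capFb. With labels of any confidence it was 17.1 for TMC1, 8.61 for TMC2, 5.29 for TMC3, 7.03 for TMC4 and 23.3 for capFb, and by the wider rule 7.62 for TMC3. Left of the median x it was 15.5 for TMC4 and 38.7 for capFb, right of it 18.4 for TMC2, 12.7 for TMC4 and 86.8 for capFb, and in bins at or above the median depth 8.84 for TMC4 and 35.2 for capFb.

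The median distance of TMC4 was 353 µm with first labels alone, 335 left and 449 right of the median x, 331 to the capsular area and 321 at any confidence. That of TMC3 was 0 µm with 266 first labels alone (0 to 10), 144 at any confidence, 191 in segmented cell bins and 205 by the wider rule. The medullary share of TMC4 was 71.3% in deep bins, 59.7% in cell bins and 46.8% at any confidence. That of TMC2 was 0 with 45 first labels, 3.77% in cell bins and 3.38% at any confidence, and that of capFb 2.38% at any confidence. With a filter of 20 UMIs, which tests more genes, 724, 701, 638 and 2003 genes passed 2-fold in TMC1, TMC2, TMC3 and TMC4, against 361, 427, 270 and 1287. Of the 61 listed genes the highest type changed in 0 with cells of at least 1000 UMIs and in 3, Aldh1a3, Epcam and Krt5, with the mean of the cells' CPM. The causes of these shifts were not tested. No paired analysis was possible because the section and the stromal library are 1 sample each.

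Depth limits what a missing label shows, since bins held a median of 323 UMIs and TMC1 and TMC2 in the capsular region and TMC4 in mEFA and the cortex were called more often in deeper bins. The marked lines and regions were used as the authors gave them, and other rules for them were not analysed here. How they were made is not given in the sources used here. All marked bins were in expression cluster 13, so the lines are not shown to be independent of the RNA that gave the labels.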

Other observations

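Of the 3 endothelial genes listed as markers of other cells, Tek passed 2-fold in capFb and Cdh5 in TMC3 (5.57% and 2.00% of genes tested passed). The 3 genes together were 25.7 CPM in TMC3 and 197 in capFb. Tek was 189 CPM in capFb (183 to 196) on a UMI in 82.1% of its cells, against 23.2 in TMC1 and 1.64 in TMC4, while the endothelial genes Pecam1 and Cdh5 were 6.99 and 0.928 CPM in capFb, the lowest of the 5 types. Pparg was 36.4 CPM in TMC1 and 84.5 in vSMC/PC, where Adipoq, a product of mature fat cells, was 1.21 CPM on 17 UMIs in TMC1 and had no UMI in vSMC/PC.

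A spot crossed by a marked line, chosen after its values were seen, held 15 TMC4 bins among 317 bins within 100 µm (4.73%). None of these bins was in a medullary region and the nearest medullary bin lay 177 µm from its centre. Bins within 50 µm of the line cannot be called medullary by the region rule. The first label was mature single-positive in 7.26% of the bins of the spot and in 1.41% of all capsular bins. An agonist-selected or regulatory T cell label came first in 12.6% and 3.38%. Of the 8 capsular TMC4 bins in the spot 7 were in cluster 5. Whether the spot is medullary tissue was not tested.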
